A study of Homo sapiens with 6 samples.

Results

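The genes described here are WDHD1 and 9 genes whose proteins work beside it at the replication fork, chosen by gene symbol from a table of 58735 genes. They are the 4 subunit genes of DNA polymerase alpha-primase (POLA1, POLA2, PRIM1 and PRIM2), CDC45, and the 4 subunit genes of the GINS complex (GINS1, GINS2, GINS3 and GINS4). Each of the 10 symbols matched a single row. The comparison was of A549 cells carrying the genotype label ZBTB16 overexpression (3 libraries) against A549 cells titled pc3.1 with the genotype label WT (3 libraries). A549 is an established line from a human lung adenocarcinoma. The name pc3.1 is read here as a plasmid backbone without insert and the group is called empty vector, although the labels do not spell this out or say how ZBTB16 was delivered. Both groups were grown in F12K medium with serum and antibiotics. The labels give no time point, and whether each repeat was its own culture is not stated, so p-values reflect only how far these libraries scatter, and that scatter may be technical. ZBTB16 (PLZF) encodes a zinc finger protein known mainly as a transcriptional repressor, and the series title places WDHD1 transcription downstream of it. The question addressed is therefore what WDHD1 and its direct partners did when the factor was supplied.

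Before S phase a ring of MCM2 to MCM7 proteins is loaded onto DNA without being active. CDC45 and the GINS tetramer then join the ring, and the resulting CMG complex is the helicase that unwinds the duplex. Polymerase alpha-primase starts every new strand: its primase makes a short RNA primer, which its polymerase extends with DNA. WDHD1, known as AND-1 and as Ctf4 in yeast, is a trimeric hub that binds both GINS and polymerase alpha and so ties primer synthesis to unwinding.

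The libraries held 15478010 to 17319971 reads recovered from the deposited FPKM (fragments per kilobase of gene, scaled to library size). ZBTB16 itself was at 426, 488 and 456 FPKM in ZBTB16 libraries and had 0 reads in all 3 empty-vector libraries, where a count of 0 allows up to 3 reads per library for counting error only. All 8 markers of A549 and lung epithelium averaged at least 1 FPKM, and their sums were 4156 to 4294 FPKM in ZBTB16 libraries and 4269 to 4460 FPKM in empty-vector libraries. The extraction text of the labels names retinas, but of 8 retinal markers CRX and RPE65 were at 0 in every library, and the 8 summed to 0.470 to 0.603 FPKM in ZBTB16 libraries and 0.501 to 0.802 FPKM in empty-vector libraries. Most of that sum was NRL, at 0.354 to 0.489 FPKM in ZBTB16 libraries and 0.366 to 0.730 FPKM in empty-vector libraries. Summed markers of immune cells were at most 0.132 and 0.128 FPKM in the ZBTB16 and empty-vector libraries. Those of endothelium reached 0.254 and 0.204 FPKM, and those of fibroblasts 2.25 and 2.22 FPKM, of which COL1A1 made up a mean of 2.01 and 2.06 FPKM.

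WDHD1 and CDC45 each start, by annotation, near a gene read in the other direction, and the levels of these neighbours are given below. The sequences between the starts are therefore shown first, and which starts these cells used was not measured. By the deposited hg38 coordinates the start of WDHD1 lies 125 bases from that of SOCS4, and the start of CDC45 lies 244 bases from that of UFD1. The stretches between the starts are given 5′ to 3′ on the strand of the replication gene, followed for comparison by the upstream windows of POLA1 and GINS1. The sequences are RefSeq's (GRCh38.p14), limited to bases outside any exon of GENCODE 29. Capitals mark matches, on either strand, to the letters of an E2F site (TTTCCCGC, TTTGGCGC, TTTCGCGC or TTTGCCGC), a CCAAT box (CCAAT), a cell cycle homology region, CHR (TTTGAA or TTCGAA), or a GC box (GGGCGG).
WDHD1, chr14:55027106-55027229, minus strand: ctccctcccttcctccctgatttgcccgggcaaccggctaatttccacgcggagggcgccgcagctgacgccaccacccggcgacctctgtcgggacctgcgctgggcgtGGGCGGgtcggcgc
CDC45, chr22:19479216-19479458, plus strand: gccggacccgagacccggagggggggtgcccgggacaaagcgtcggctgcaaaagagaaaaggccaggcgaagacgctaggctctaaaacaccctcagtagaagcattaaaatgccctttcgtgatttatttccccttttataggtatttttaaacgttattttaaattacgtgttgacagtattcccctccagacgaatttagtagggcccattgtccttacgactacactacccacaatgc
POLA1, chrX:24693668-24693917, plus strand: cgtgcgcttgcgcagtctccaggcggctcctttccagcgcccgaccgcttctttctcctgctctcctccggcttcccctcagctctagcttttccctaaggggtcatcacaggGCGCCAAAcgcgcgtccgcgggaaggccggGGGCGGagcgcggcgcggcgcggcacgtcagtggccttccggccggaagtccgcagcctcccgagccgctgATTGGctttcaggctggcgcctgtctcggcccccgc
GINS1, chr20:25407423-25407672, plus strand: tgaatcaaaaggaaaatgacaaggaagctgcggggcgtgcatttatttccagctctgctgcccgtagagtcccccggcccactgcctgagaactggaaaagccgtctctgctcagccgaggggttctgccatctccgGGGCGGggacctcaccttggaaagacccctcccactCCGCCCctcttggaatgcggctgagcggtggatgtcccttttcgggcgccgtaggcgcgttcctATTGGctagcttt

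In the WDHD1 stretch a single GC box was found, in forward orientation, and in the CDC45 stretch none of these letters was present. The POLA1 window held an E2F match with a GC box and a CCAAT box closer to the start, the GINS1 window a CCAAT box and a pair of GC boxes. Over the 250 bases before each RefSeq start, 12 windows were available for 9 of the genes, with no entry for GINS4. E2F letters occurred in 3 of the 12 windows, those of POLA1, POLA2 and GINS2, against 2.79% of all 35116 promoter windows. CCAAT occurred in 6 of 12 windows (5 genes), against 32% of all, and GGGCGG in 7 of 12 (6 genes), against 42.6% of all. CDC45 counted in both, through windows before RefSeq starts 367 and 461 bases inside the gene. These held 2 and 4 CCAAT matches and 2 and 1 GGGCGG matches, overlap each other, and lie outside the stretch shown. CHR letters occurred in 0 of 12, against 14.3% of all. These are matches of letters within a window and not measured binding, and windows of the same gene can overlap.

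WDHD1 was lower in every ZBTB16 library than in any empty-vector library, but the difference did not pass the test over all genes. The gene (ENSG00000198554, chromosome 14, 54938950 to 55027105, minus strand) was at 4.55, 4.67 and 4.72 FPKM in ZBTB16 libraries, against 5.52, 5.63 and 5.65 FPKM in empty-vector libraries. The highest ZBTB16 value lay well below the lowest empty-vector value, and neither group spanned more than 0.2 FPKM. On the log2(FPKM + 1) scale used for testing, the fold change was -0.22 (SE 0.05, 95% interval -0.34 to -0.11), with a limma p of 0.00195 and a Benjamini-Hochberg adjusted p of 0.167 over 12499 genes. These values rested on 449, 510 and 523 reads in ZBTB16 libraries and 590, 600 and 601 reads in empty-vector libraries. Pooled over a group and scaled to library size, the ratio of ZBTB16 to empty vector was 0.831, with an exact 95% interval of 0.775 to 0.890 that covers counting error only. In bulk RNA, fewer cells that express a gene and less of its transcript per cell cannot be told apart, here and for all values that follow.

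**Figure D1:**
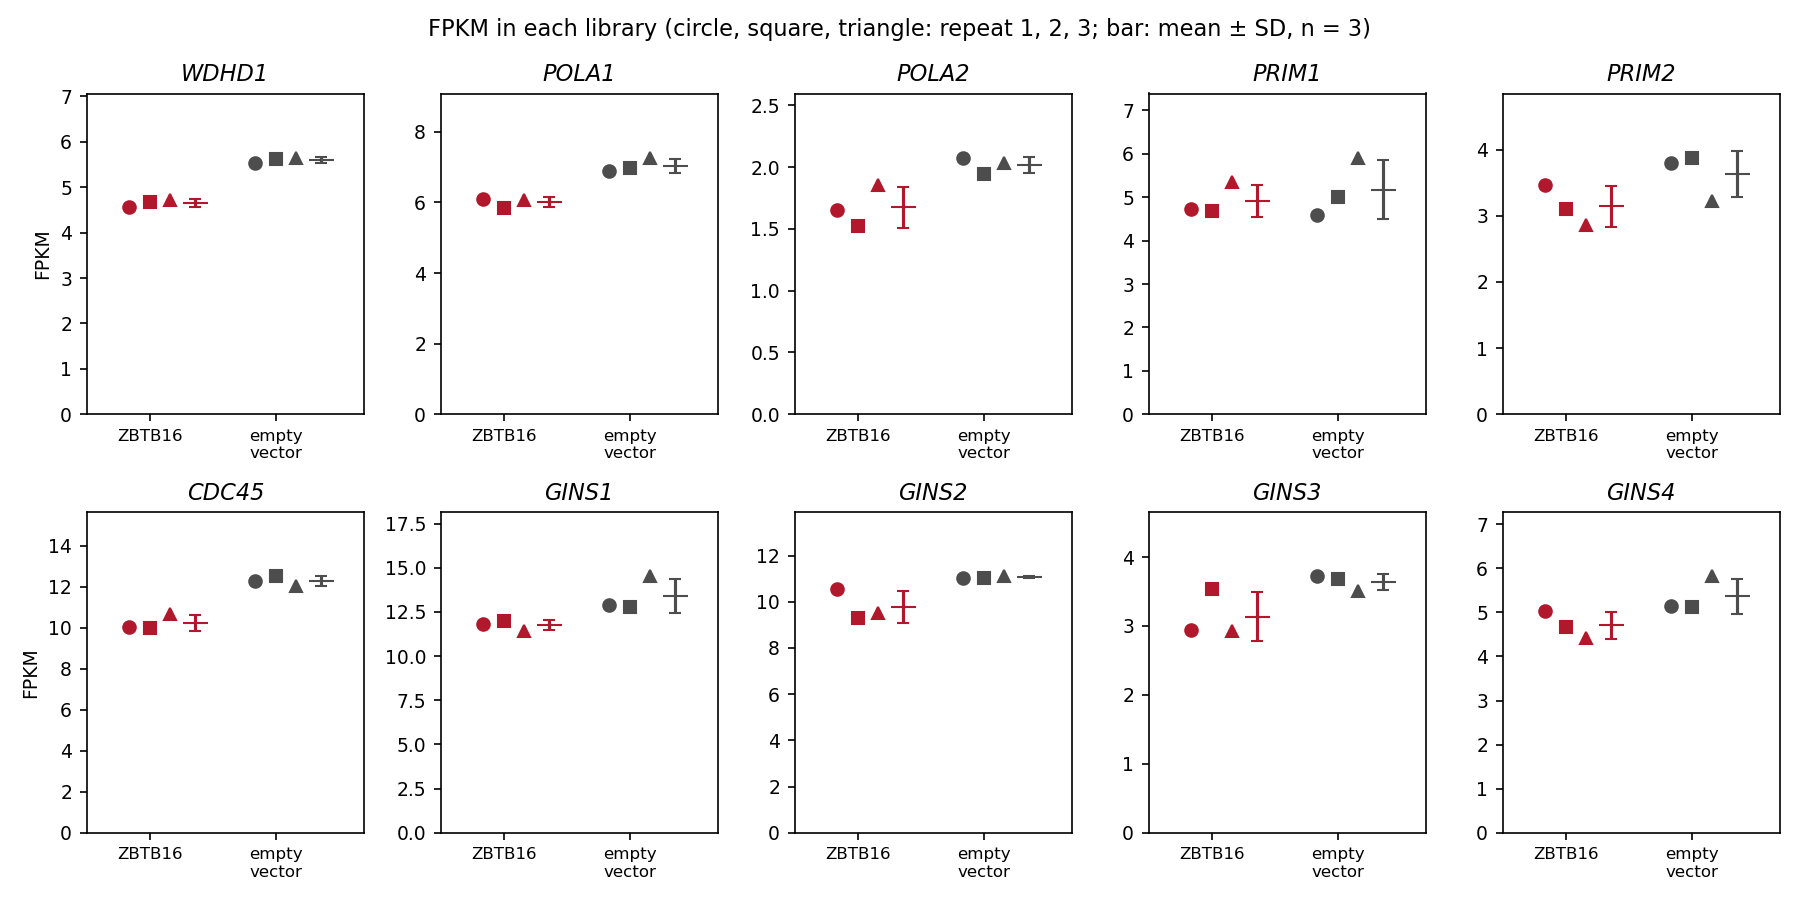
FPKM of the 10 genes in each ZBTB16 library (red) and each empty-vector library (grey), each panel with its own axis from 0; symbols give repeats 1 to 3 and bars the mean ± SD of 3 libraries. In 7 panels all ZBTB16 libraries lie below all empty-vector libraries, while in those of PRIM1, PRIM2 and GINS3 the groups overlap.

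The spread of WDHD1 was below the counting error expected from its reads, but an SD of only 3 libraries can fall below that by counting alone. How many of all tested genes did so was not computed. Its SD was 1.88% of the mean in ZBTB16 libraries and 1.23% in empty-vector libraries, where counting error alone corresponds to 4.51% and 4.09%. WDHD1, POLA1 and CDC45 were the 3 genes of the set whose spread lay below counting error in both groups. GINS2 in empty-vector libraries was the extreme, with a spread of 0.402% against a counting error of 4.07%. At the other end PRIM1 spread by 13.1% in empty-vector libraries, where counting error was 6.93%, and GINS3 by 11.2% in ZBTB16 libraries, where it was 6.17%. A tight group of 3 therefore does not mean a more precise level than the reads allow, so pooled-read ratios with their counting intervals are given as well.

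**Figure D2:**
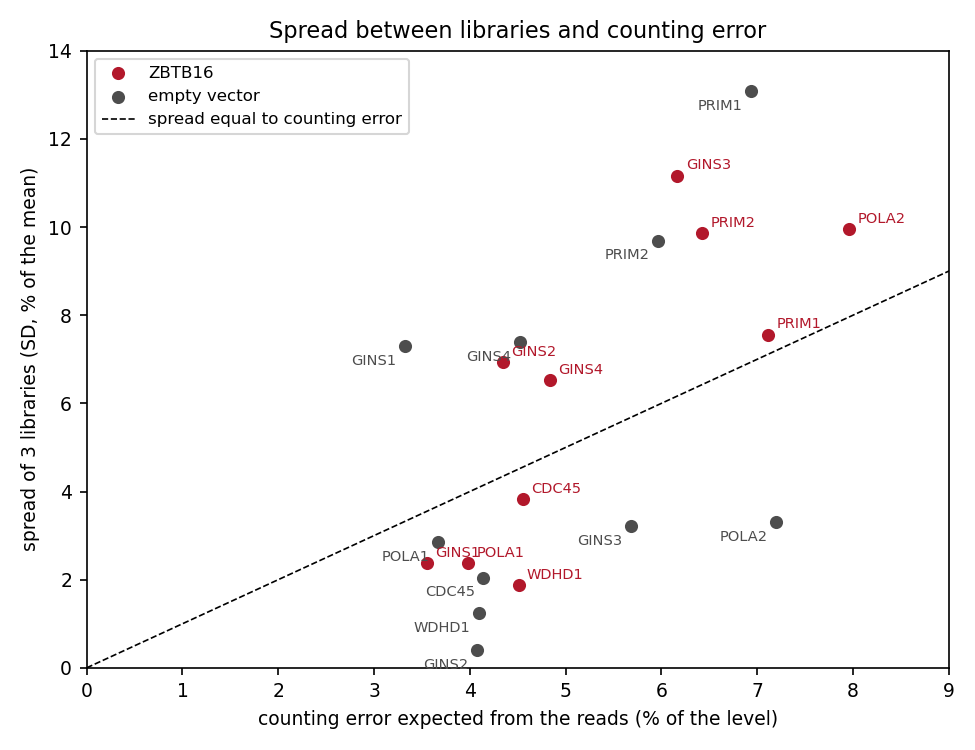
Spread of 3 libraries (SD as a percentage of the mean, vertical axis) against the counting error expected from the recovered reads (percentage of the level, horizontal axis), for each of the 10 genes in ZBTB16 libraries (red) and empty-vector libraries (grey); the dashed line marks equality. In ZBTB16 libraries 4 genes lie below the line and in empty-vector libraries 6, as an SD of 3 libraries can by counting alone.

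CDC45 and the 4 GINS genes, which turn the MCM ring into the active helicase, all had negative fold changes. CDC45 had the smallest p of the 10 genes in limma on log2(FPKM + 1), though not in limma voom on the recovered reads. The gene (ENSG00000093009, chromosome 22, 19479459 to 19520612, plus strand) was at 10.06, 9.99 and 10.7 FPKM in ZBTB16 libraries, against 12.3, 12.5 and 12.02 FPKM in empty-vector libraries. The groups were apart by more than the width of either. Its log2 fold change was -0.24 (SE 0.05, 95% interval -0.35 to -0.13, limma adjusted p = 0.127), and its pooled-read ratio was 0.835 (0.779 to 0.896).

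GINS1 (Psf1; ENSG00000101003, chromosome 20, 25407727 to 25452628, plus strand), the most abundant of the 10, was at 11.8, 11.96 and 11.4 FPKM in ZBTB16 libraries, against 12.9, 12.8 and 14.5 FPKM in empty-vector libraries. Empty-vector repeat 3 stood above the other empty-vector libraries, and the groups did not overlap. GINS2 (Psf2; ENSG00000131153, chromosome 16, 85676198 to 85690073, minus strand) was at 10.6, 9.28 and 9.51 FPKM in ZBTB16 libraries, against 11.02, 11.05 and 11.11 FPKM in empty-vector libraries. Here ZBTB16 repeat 1 came closest to the empty-vector libraries, which were almost equal to each other. Their log2 fold changes were -0.17 and -0.16 (SE 0.06 each), with limma adjusted p of 0.323 and 0.338.

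GINS3 (Psf3; ENSG00000181938, chromosome 16, 58295080 to 58406144, plus strand) was at 2.94, 3.54 and 2.93 FPKM in ZBTB16 libraries, against 3.72, 3.69 and 3.50 FPKM in empty-vector libraries. The groups overlapped through ZBTB16 repeat 2, which lay above empty-vector repeat 3. GINS4 (Sld5; ENSG00000147536, chromosome 8, 41529206 to 41545046, plus strand) was at 5.03, 4.68 and 4.41 FPKM in ZBTB16 libraries, against 5.15, 5.12 and 5.82 FPKM in empty-vector libraries. The gap between the groups was narrow, from 5.03 FPKM in ZBTB16 repeat 1 to 5.12 FPKM in empty-vector repeat 2. The log2 fold changes were -0.17 (SE 0.07) for GINS3 and -0.16 (SE 0.07) for GINS4, with limma adjusted p of 0.487 and 0.480. The pooled-read ratios of the 4 GINS genes lay between 0.864 and 0.882. Their exact counting intervals ran from 0.829 to 0.926 for GINS1, from 0.824 to 0.944 for GINS2, from 0.785 to 0.9503 for GINS3 and from 0.811 to 0.944 for GINS4.

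In polymerase alpha-primase the groups were separate for POLA1 and POLA2, with ZBTB16 lower, and overlapped for PRIM1 and PRIM2. Of all tested genes, 8.1% had ZBTB16 values wholly below empty vector. POLA1, the catalytic polymerase (ENSG00000101868, chromosome X, 24693919 to 24996986, plus strand), was at 6.09, 5.84 and 6.07 FPKM in ZBTB16 libraries, against 6.89, 6.97 and 7.27 FPKM in empty-vector libraries. The groups were separated by more than their own widths. Its log2 fold change was -0.20 (SE 0.05, 95% interval -0.32 to -0.08, limma adjusted p = 0.194), and its pooled-read ratio was 0.852 (0.801 to 0.906). POLA2, the accessory B subunit (ENSG00000014138, chromosome 11, 65261762 to 65305589, plus strand), was at 1.65, 1.52 and 1.85 FPKM in ZBTB16 libraries, against 2.08, 1.95 and 2.03 FPKM in empty-vector libraries. The groups did not overlap, but ZBTB16 repeat 3 came near empty-vector repeat 2. As the least abundant gene, with 146 to 199 reads a library, POLA2 had an estimate of -0.18 on the log2 scale (SE 0.08, limma adjusted p = 0.480), a difference of -17.0% in FPKM, and a pooled-read ratio of 0.831 (0.734 to 0.939).

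PRIM1, the catalytic primase (ENSG00000198056, chromosome 12, 56731596 to 56752373, minus strand), was at 4.73, 4.68 and 5.35 FPKM in ZBTB16 libraries, against 4.59, 5.02 and 5.91 FPKM in empty-vector libraries. The lowest of the 6 values belonged to empty vector, and repeat 3 was the highest in both groups. Its log2 fold change of -0.06 (SE 0.09, 95% interval -0.25 to 0.14, limma adjusted p = 0.897) came from a mean difference of -4.87% in FPKM, and the pooled-read ratio of 0.953 had an interval on both sides of 1 (0.851 to 1.07). Without empty-vector repeat 3 the fold change was positive, at 0.03. The interval does not separate PRIM1 from its partners: it includes fold changes as low as those of WDHD1 and CDC45.

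PRIM2, the large primase subunit, which carries an iron-sulfur cluster (ENSG00000146143, chromosome 6, 57314805 to 57646849, plus strand), was at 3.47, 3.096 and 2.85 FPKM in ZBTB16 libraries, against 3.79, 3.88 and 3.23 FPKM in empty-vector libraries. The groups overlapped, with ZBTB16 repeat 1 above empty-vector repeat 3. Its log2 fold change was -0.16 (SE 0.08, limma adjusted p = 0.569), and its pooled-read ratio was 0.861 (0.779 to 0.952). The deposited annotation describes a pair of PRIM2 pseudogenes, 1 of PRIM1 and 1 of GINS2. They held at most 5 reads in any library, so few reads were assigned to these copies.

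**Figure D3:**
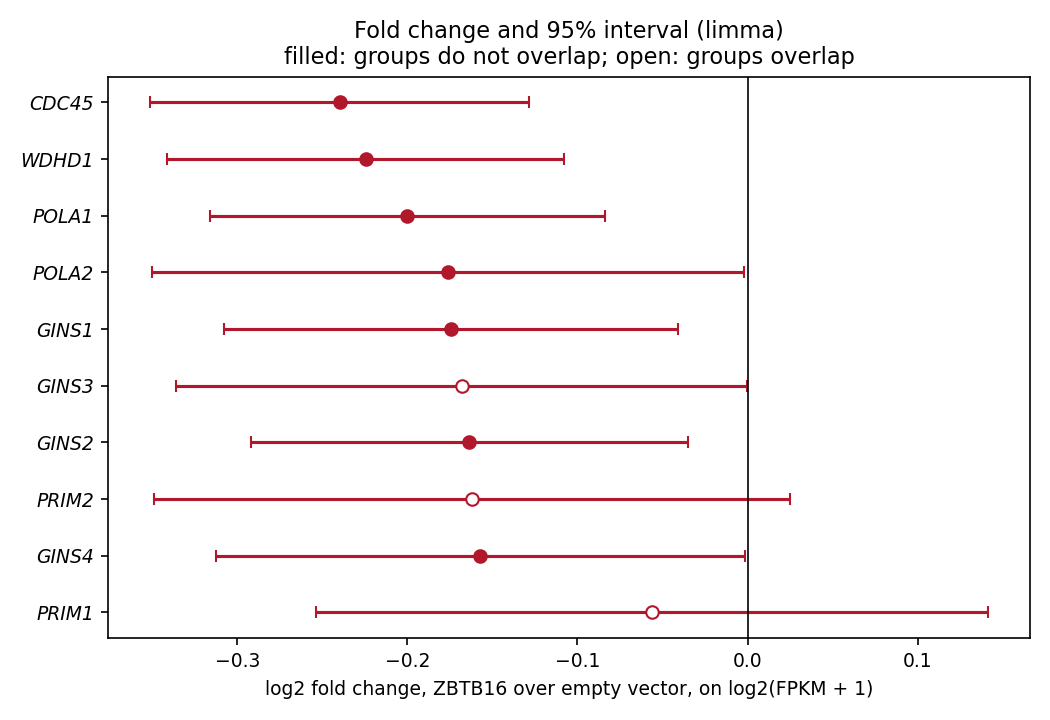
Log2 fold change of ZBTB16 over empty vector on the log2(FPKM + 1) scale (horizontal axis) with the 95% interval from limma, for the 10 genes in order; filled circles mark genes whose groups do not overlap. All 10 estimates are negative, from -0.24 for CDC45 to -0.06 for PRIM1, and the intervals of PRIM1 and PRIM2 include 0. The scale understates fold changes of low genes: in FPKM, POLA2 and WDHD1 differed by -17.0% each and CDC45 by -16.5%.

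Counted together, all 10 genes passed the filter of a mean of at least 1 FPKM and had a negative fold change, where 51.5% of the 12499 tested genes did. At a limma adjusted p under 0.05, 0 of the 10 were called, against 0.008% of tested genes called lower and 0.064% called higher. At an unadjusted p under 0.05, 8 of 10 were lower and 0 higher, against 5.17% and 5.08% of all tested genes. In 7 of 10 the ZBTB16 values lay wholly below the empty-vector values, against 8.1% of tested genes, and in 0 wholly above, against 8.12%. With limma voom on the recovered reads 0 of 10 were called as well, against 0.832% of genes lower and 0.816% higher. WDHD1 had an adjusted p of 0.0507 in that fit, CDC45 0.0626 and POLA1 0.0714. The median log2 fold change was -0.17 over the 10 genes and -0.003 over all tested genes. The 10 genes were measured in the same 6 libraries, so they are not 10 separate observations, and the lower direction of replication genes in these libraries was known when they were chosen.

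The levels of the genes differed far more between genes than between groups. FPKM is per length of gene, which allows levels to be set side by side, but the levels of POLA2, GINS4, PRIM1 and GINS3 depend on how reads in exon bases shared with other genes were counted, and that is not known. In both groups GINS1, CDC45 and GINS2 were the highest, in that order, at means of 11.7, 10.2 and 9.78 FPKM in ZBTB16 libraries and 13.4, 12.3 and 11.1 FPKM in empty-vector libraries. POLA1 came next, and POLA2 was lowest, at 1.68 ± 0.167 FPKM in ZBTB16 libraries and 2.02 ± 0.0666 FPKM in empty-vector libraries (SD, n = 3 each). WDHD1, PRIM1 and GINS4 shared the middle, and PRIM2 and GINS3 came below them. Neighbours in this order whose libraries overlapped were PRIM1 with GINS4, GINS4 with WDHD1, PRIM2 with GINS3 and, in ZBTB16 libraries alone, CDC45 with GINS2. The order of WDHD1, PRIM1 and GINS4 was the reverse between groups, with WDHD1 last of the 3 in ZBTB16 libraries and first in empty-vector libraries, but those differences lay within the spread.

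FPKM levels of subunits that assemble 1 to 1 were unequal, with the same limit of gene length, and that of shared exon bases for POLA2 and GINS3. The ratio of POLA2 to POLA1 was 0.279 ± 0.0232 in ZBTB16 libraries and 0.287 ± 0.0127 in empty-vector libraries (SD, n = 3 each). The ratio of GINS1 to GINS3 was 3.77 ± 0.341 in ZBTB16 libraries and 3.69 ± 0.392 in empty-vector libraries. For both pairs the groups overlapped, and the offset between subunits was present in all 6 libraries.

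Relative to WDHD1, the groups overlapped for all 9 ratios, and 8 of the 9 had a higher mean in ZBTB16 libraries than in empty-vector libraries. The 9 share WDHD1 as their denominator. CDC45 stood at 2.21, 2.14 and 2.26 times WDHD1 in ZBTB16 libraries, against 2.22, 2.22 and 2.13 times in empty-vector libraries. POLA2 averaged 0.3602 ± 0.0333 of WDHD1 in ZBTB16 libraries and 0.361 ± 0.0152 in empty-vector libraries. PRIM1 had the largest offset among the 9 ratios, at 1.04, 1.00 and 1.13 in ZBTB16 libraries, against 0.830, 0.891 and 1.05 in empty-vector libraries. Even there the groups overlapped, through empty-vector repeat 3. Ratios show unequal or equal movement only, and none of them was tested.

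The divergent neighbours of WDHD1 and CDC45 stood at overlapping levels in the groups. SOCS4, a suppressor of cytokine signalling (chromosome 14, 55027230 to 55049488, plus strand), was at 5.15, 5.48 and 5.31 FPKM in ZBTB16 libraries, against 4.94, 5.38 and 5.04 FPKM in empty-vector libraries. The groups overlapped, and the log2 fold change was 0.05 (SE 0.06, 95% interval -0.08 to 0.17, limma adjusted p = 0.867). The ratio of WDHD1 to SOCS4 was 0.884, 0.852 and 0.889 in ZBTB16 libraries, against 1.12, 1.05 and 1.12 in empty-vector libraries. These groups did not overlap: WDHD1 was the lower gene of the pair in every ZBTB16 library and the higher one in every empty-vector library. With SOCS4 at overlapping levels, the ratio largely repeats the separation of WDHD1 and is no added evidence about the locus. Ratios to unrelated genes were not computed. The exact two-sided permutation p for the log2 ratio was 0.1, which no comparison of 3 libraries with 3 can go below.

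UFD1, an adaptor that brings ubiquitylated proteins to the unfoldase p97 (chromosome 22, 19449910 to 19479215, minus strand), was at 6.58, 7.19 and 6.77 FPKM in ZBTB16 libraries, against 6.89, 7.22 and 6.89 FPKM in empty-vector libraries. Its log2 fold change was -0.03 (SE 0.05, 95% interval -0.15 to 0.09, limma adjusted p = 0.918). The ratio of CDC45 to UFD1 was 1.53, 1.39 and 1.58 in ZBTB16 libraries, against 1.78, 1.73 and 1.75 in empty-vector libraries. There was no overlap, and the exact permutation p was again 0.1. As for WDHD1, this ratio largely repeats the separation of CDC45 itself. The remaining gene that met the neighbour rule, PRSS54 beside the deposited start of GINS3, was at 0 in all 6 libraries.

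**Figure D4:**
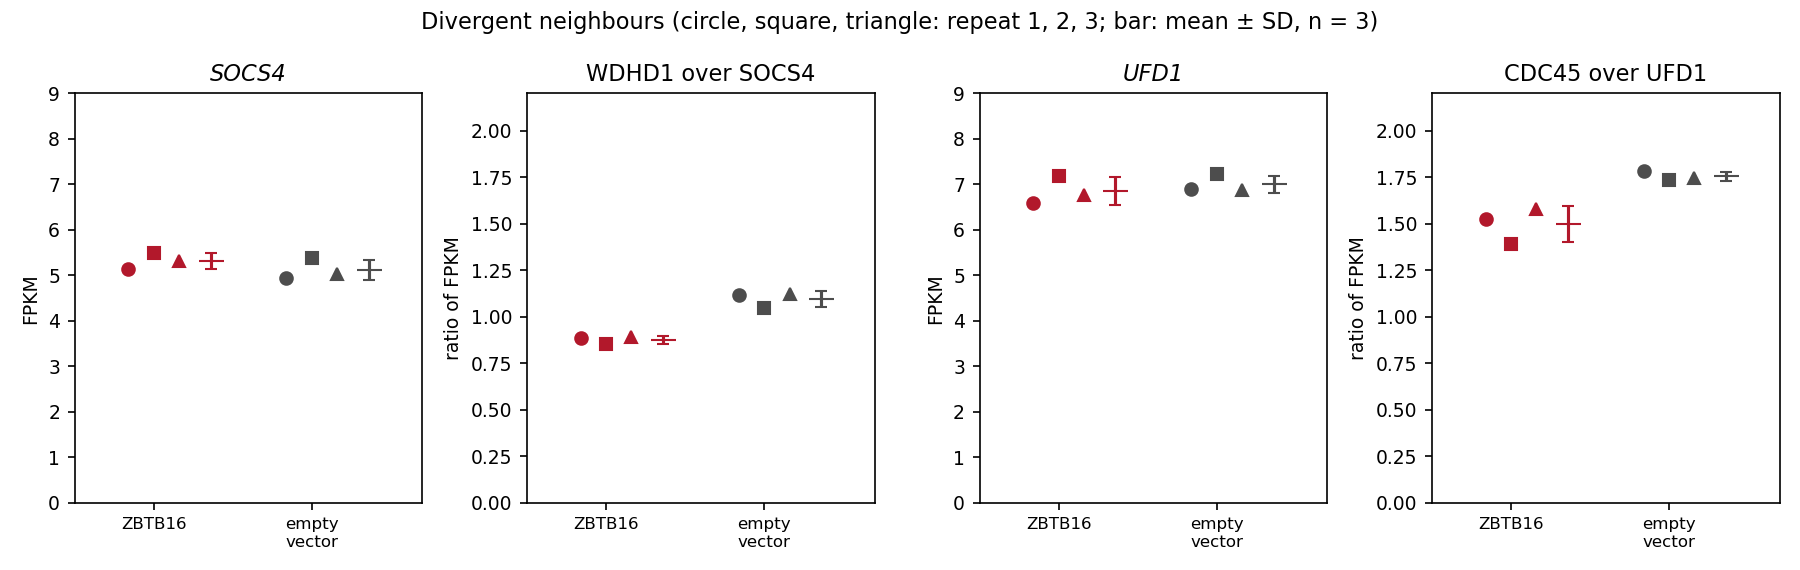
FPKM of SOCS4 and UFD1 in each ZBTB16 library (red) and each empty-vector library (grey), and the ratio of WDHD1 to SOCS4 and of CDC45 to UFD1 within each library; symbols give repeats 1 to 3 and bars the mean ± SD of 3 libraries. Both neighbours overlap between groups, while both ratios are lower in all 3 ZBTB16 libraries, as WDHD1 and CDC45 themselves are.

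Parts of some gene models overlap other genes, and neither the strand setting of the counting nor its rule for shared bases is given in the sources used here. Exons of AP000944.2 on the same strand cover 35.1% of the exon bases of POLA2, at mean levels of 0.167 FPKM in ZBTB16 libraries and 0.0985 FPKM in empty-vector libraries. For PRIM1, exons of AC117378.1 (at 0 in all libraries) cover 14.9%, those of HSD17B6 on the opposite strand 5.42% and those of NACA, an abundant gene, 1.35%. Antisense genes cover 21.2% (AC009630.2) and 2.39% (AC009630.1) of GINS4 and 10.9% (AC009118.2) of GINS3, each at a mean below 0.3 FPKM in both groups. No exon of another gene overlaps WDHD1, POLA1, PRIM2, CDC45 or GINS1, and 7 bases of GSE1 overlap GINS2. The deposited start of GINS3 lies 97391 bases before its RefSeq start, so the neighbour rule and the RefSeq window refer to different places for that gene.

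Around these genes, a list of 34 further replisome and primase partners was examined by role. The list was chosen with earlier results of these data known. Its genes share the same 6 libraries, so they are not separate observations. Of the 34, 32 passed the filter; MTBP and TEN1 did not. With limma on log2 FPKM, fold changes were negative for 30 and positive for 2, where 51.5% of all tested genes were negative, with a median log2 of -0.13, and 0 were called over all genes. At an unadjusted p under 0.05, 16 were lower and 0 higher, against 5.17% and 5.08% of all tested genes, and 19 had ZBTB16 values wholly below empty vector, against 8.1%. With limma voom on recovered reads 7 were called lower, against 0.832% of all tested genes, and these were MCM3, MCM4, MCM5, MCM6, MCM7, MCM10 and TIMELESS. The 6 listed genes of smallest p in limma on log2 FPKM were MCM10 and MCM3 to MCM7, at adjusted p from 0.0950 to 0.167.

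The helicase ring, which CDC45 and GINS join, had a median log2 fold change of -0.21 over its 6 genes. Of these, 5 reached an unadjusted p under 0.05, all lower. Over all tested genes that share was 5.17% lower and 5.08% higher, which applies to each role below. MCM4 was at 27.6 ± 0.679 FPKM in ZBTB16 libraries and 32.7 ± 0.269 FPKM in empty-vector libraries, and MCM7 at 66.1 ± 0.832 FPKM in ZBTB16 libraries and 76.8 ± 2.56 FPKM in empty-vector libraries (SD, n = 3 each). Fork protection and unloading genes, 5 in number, had a median of -0.21, and 4 of them reached an unadjusted p under 0.05, all lower. TIMELESS, which with TIPIN travels with the helicase, was at 21.8 ± 1.26 FPKM in ZBTB16 libraries and 25.4 ± 0.520 FPKM in empty-vector libraries. Loading and firing factors had a median of -0.14 over 7 tested genes and ranged widely, from -0.28 for MCM10 to -0.003 for the kinase gene CDC7.

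The other replicative polymerases, delta and epsilon, had a median of -0.09 over 8 genes, and POLE, POLE2 and POLD1 reached an unadjusted p under 0.05. Single-strand binding subunits RPA1 to RPA3 had a median of -0.09, and 0 of 3 reached an unadjusted p under 0.05. CST, which recruits polymerase alpha-primase at telomeres, and the second primase PRIMPOL had a median of -0.03 over 3 tested genes, again with 0 at an unadjusted p under 0.05. STN1 of CST was at 23.3 ± 1.97 FPKM in ZBTB16 libraries and 23.0 ± 1.90 FPKM in empty-vector libraries. PRIMPOL was at 3.18 ± 0.0769 FPKM in ZBTB16 libraries and 3.46 ± 0.168 FPKM in empty-vector libraries, with a log2 fold change of -0.09 and an adjusted p of 0.689. Differences between these roles were not tested. The log2(FPKM + 1) scale understates fold changes of low genes, so medians of roles at different levels are not directly comparable.

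**Figure D5:**
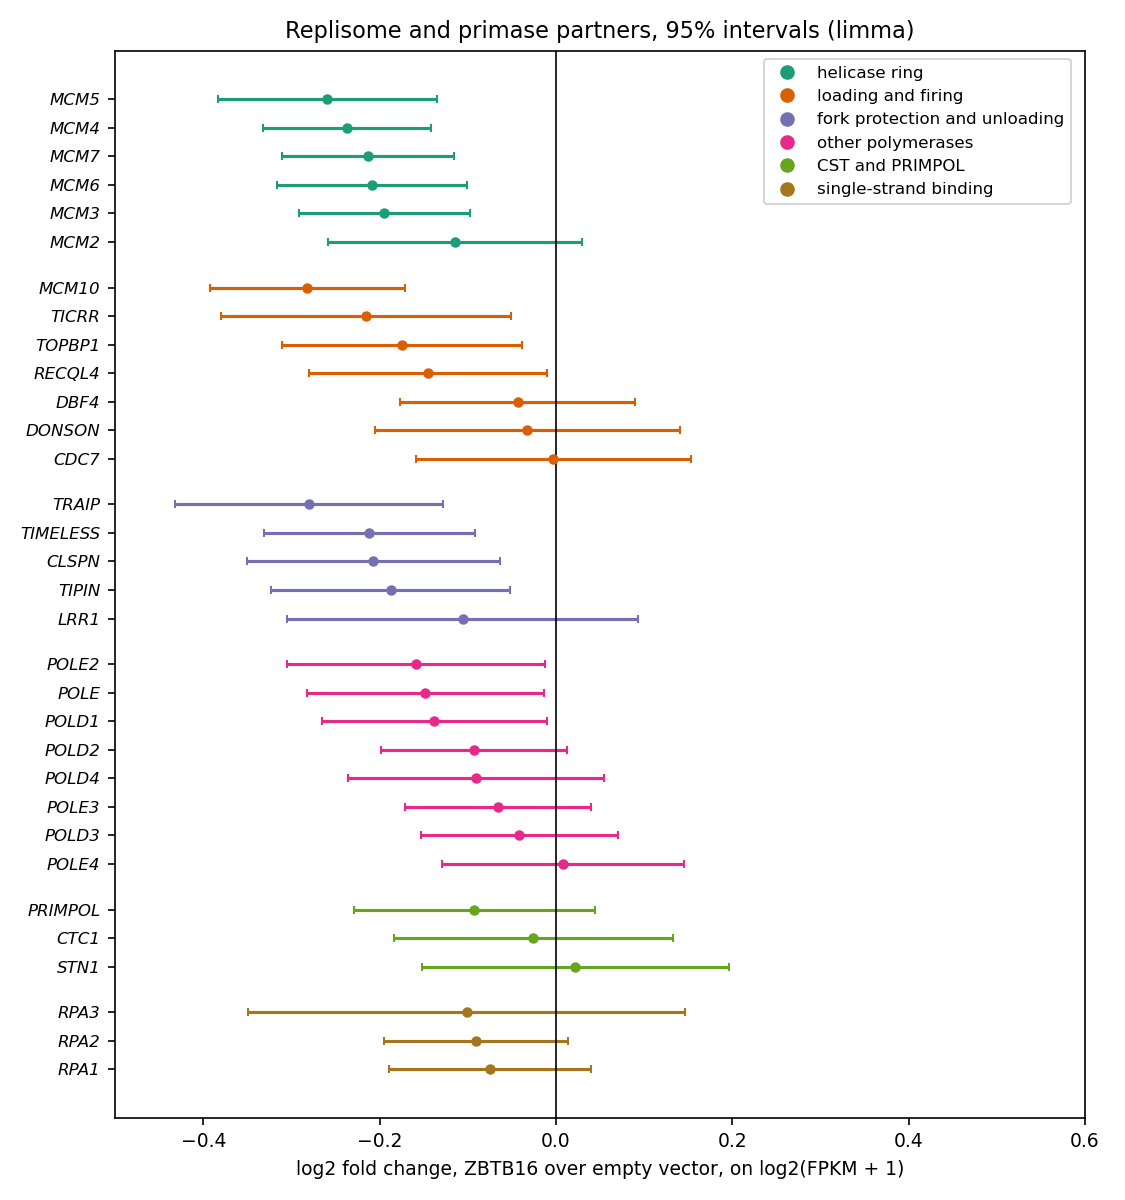
Log2 fold change of ZBTB16 over empty vector on the log2(FPKM + 1) scale (horizontal axis) with the 95% interval from limma, for the 32 tested genes of the partner list, coloured by role. The helicase ring and fork protection genes have the lowest medians, -0.21, and the CST and PRIMPOL genes nearest to 0, with a median of -0.03. The scale understates fold changes of low genes, and the roles differ in level.

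Among the partners of WDHD1 in the set, CDC45 and POLA1 followed its pattern over the 6 libraries most closely. Pearson's r on log2(FPKM + 1) was 0.971 and 0.963, while PRIM1 was at 0.351. Set beside 10798 protein-coding genes outside the set, the r of CDC45 and POLA1 ranked 24 and 31. Their r with group means removed was not computed. Outside the set the 5 most similar of 10798 protein-coding genes were EZH2, KIF20A, BLM, LBH and MCM10, with r from 0.986 to 0.997. EZH2, the histone H3 lysine methyltransferase of Polycomb, was at 8.27 ± 0.114 FPKM in ZBTB16 libraries and 9.89 ± 0.122 FPKM in empty-vector libraries, a log2 fold change of -0.23 with a limma adjusted p of 0.116. KIF20A, a mitotic kinesin, was at 11.8 ± 0.313 FPKM in ZBTB16 libraries and 13.8 ± 0.181 FPKM in empty-vector libraries. The 6 libraries fall into their 2 groups, which the genes share, and 185 protein-coding genes reached r above 0.9. With group means removed, r of the 5 genes lay between 0.424 for MCM10 and 0.9004 for KIF20A. That is no separate check, since the 5 were picked by r over the same 6 libraries. The spread of WDHD1 within groups was also below its counting error. These values only describe likeness over few libraries.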

How the data were processed

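RNA was sequenced from A549 cells labelled ZBTB16 or pc3.1, 3 libraries each, grouped by title. The deposited values are FPKM per gene, computed by the authors, per the file headers. The submitters' processing notes name HISAT2 2.0.5 and hg38, with the read counter and strand setting not given in the sources used here, nor an annotation version. The members and gene lists were chosen with earlier results of these data known.

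FPKM times gene length gave whole reads (within 0.01) for 100% of values, so reads were recovered. These totalled 15478010 to 17319971 per library. The 12499 genes averaging at least 1 FPKM entered a limma fit (limma 3.58.1, R 4.3.3) of log2(FPKM + 1) (trended robust prior, two-sided, Benjamini-Hochberg, called under 0.05). That scale understates fold changes of low genes. Counting intervals are exact, at 95%, and assume independent reads. Exact permutation tests of 3 libraries against 3 cannot go below 0.1.

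All 10 members are named, with the 6 partner-list genes of smallest p, every divergent gene starting within 1000 bases, and the 5 genes most correlated with WDHD1. Other partner genes given as examples were picked with their values known. Exon overlaps used GENCODE 29. Alternatives were other pseudocounts, filters, scalings and priors, limma voom on recovered reads, a replicate block, and omission of each library in turn. The fit was tested on simulated reads. Figures were drawn with matplotlib 3.10.9. Some marker genes are not reported here.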

Additional observations from a re-analysis of the deposited data

How the results depend on the processing

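WDHD1 kept a negative fold change in all 16 alternatives, from -0.27 to -0.21, and was called in none (limma adjusted p 0.0507 to 0.453). Its leave-one-out fold changes spanned -0.23 to -0.21. The other 9 genes were called in none of their alternatives either, and their fold changes stayed negative except that of PRIM1, which was 0.028 without empty-vector replicate 3 and spanned -0.13 to 0.028 with a library left out. The number of members called was 0 in each setting. Genes called lower over the whole table, 1 as reported, numbered 2 with a pseudocount of 0.1, 3 with quantile normalization, 31 at a mean of at least 5 FPKM, 33 among protein-coding genes, 104 with voom and 0 with no filter or a constant prior. Those called higher, 8 as reported, numbered 13, 44, 56 and 102 with quantile normalization, the higher filter, protein-coding genes and voom, and 1 with no filter or a constant prior. With a library left out they ranged from 0 to 2 lower and from 1 to 6 higher. Partner-list genes called lower, 0 as reported, numbered 2 at a mean of at least 5 FPKM, 2 among protein-coding genes and 7 with voom. The filters change both the number of genes tested and the fit: the SE of CDC45 was 0.0490 as reported and 0.0534 among protein-coding genes. What caused the shifts in these counts was not tested. Deviations from group means correlated at 0.067, 0.047 and -0.044 for same-numbered libraries, and at -0.084 to 0.041 for differently numbered ones. Same-numbered libraries are not treated as pairs. With the repeat number as a replicate block WDHD1 stood at -0.22 (adjusted p = 0.197), 0 members were called, and 3 genes were called lower over the table. Depth limits POLA2 and PRIM1 most, where fewer than 250 reads a library leave counting errors of 6.93% to 7.96%.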
